A study of Mus musculus with 30 samples.

Results

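C2C12 myoblasts held in 5 µM hexavalent chromium were followed over the second day of differentiation: the 3 libraries of 5 µM day 2 were set against the 3 libraries of 5 µM day 1. These 6 libraries, of 30 in the study, were chosen by the dose and the day in their labels and not by any measured value. The comparison and the gene lists were chosen with earlier results of these data known. C2C12 is an established clonal mouse line of muscle progenitor cells, so replicate cultures share 1 genotype, and its differentiated cultures hold unfused cells beside myotubes. Cells of both groups were switched to DMEM with 2% horse serum, and the chromium was added to that medium as potassium chromate. The same interval in cells given the medium with 0 µM, with 3 libraries of day 2 and 3 of day 1, is used where the change at 5 µM is compared with it. RNA was taken with TRIzol and sequenced from TruSeq libraries, and each group had 3 biological replicates.

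Myoblasts that lose serum leave the cell cycle, turn on myogenin and its partner factors, fuse into myotubes and then build sarcomeres, the calcium stores that trigger contraction and the enzymes that fuel it. Chromate enters cells through anion transporters and is reduced inside them, which damages DNA and burdens thiol defences. Cells with damaged DNA can stop before mitosis, when the cyclins, kinases and spindle proteins of the G2 and M phases are at their highest.

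Values are the deposited signal, called scaled CPM here, and a change is a difference of group means of log2(scaled CPM + 1). A gene rose or fell when limma's Benjamini-Hochberg adjusted p was below 0.05 over 12946 genes, and every adjusted p of a gene here is limma's unless edgeR is named. A gene called risen or fallen, and a difference between doses that passed, also passed without day 1 replicate 3 unless its sentence says otherwise. The 6 libraries held 22238345 to 25250475 reads in genes, recovered from the steps of the values. Day 1 replicate 3 stood apart: 185 genes reached at least 5 scaled CPM in it and stayed below 1 in the other 29 libraries. All 15 lung epithelium markers and all 20 leukocyte markers were above 0 in it, among them the surfactant gene Sftpc, the myeloid gene Lyz2 and the antibody gene Igkc. The lung list summed to 457 scaled CPM there, against 10.4 to 14.7 in the day 2 libraries and 18.9 and 29.1 in the other day 1 libraries, and 9 of its 15 genes, Sftpc and Sftpb included, were at 0 in all 5 other libraries. The leukocyte list summed to 375 in it and to at most 1.24 in the other 5, and 13 of its 20 genes were at 0 in all 5. The neuroendocrine list summed to 246 in it and to at most 1.71 in the others, the endothelial list to 43.3 and at most 2.93, and the red cell list to 34.8 and at most 9.38, with 3, 3 and 4 of their genes at 0 in all 5 others. The adipocyte list did not set it apart, with 95.6 in it and 96.5 to 133 in the others, nearly all of it Lpl and Car3, while Cfd, Plin1, Cidec and Retn were at 0 in all 6. The part of these transcripts in the results was not tested. A change at 5 µM followed by a second value in square brackets is given there without day 1 replicate 3, in signed log2. Myod1, Myf5, Myog, Des and Cdh15 were expressed in all 6 libraries.

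**Figure D1:**
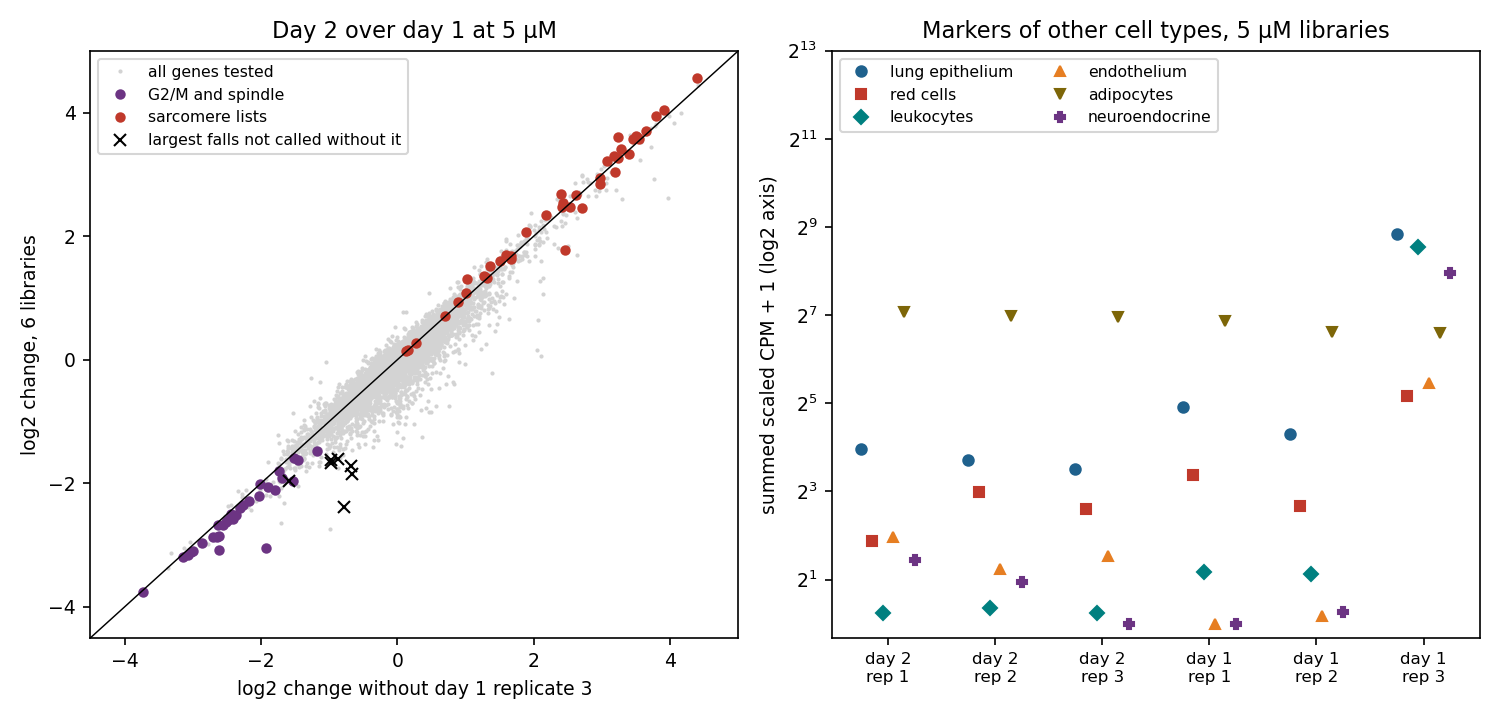
Left, the log2 change of each gene from day 1 to day 2 at 5 µM in all 6 libraries (vertical) against the same change without day 1 replicate 3 (horizontal), with the line of equality. Right, the summed scaled CPM plus 1 of 6 marker lists in each of the 6 libraries on a log2 axis: day 1 replicate 3 is high for 5 of the lists, while most sarcomere and G2/M genes on the left lie near the line and crosses mark 7 of the largest falls that were not called without it.

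Between day 1 and day 2 at 5 µM, 1665 genes rose (12.9% of those tested) and 1034 fell (7.99%), of which 391 rises and 427 falls were at least 2-fold. Without day 1 replicate 3, 1404 genes rose (10.9%) and 834 fell (6.48%) of 12862 tested, and 1289 of the rises and 751 of the falls were called both ways. No call reversed without it, but 376 rises and 283 falls were no longer called. At 0 µM the same interval held 1658 rises (12.8%) and 1220 falls (9.42%). At 5 µM the replicates of day 2 and day 1 did not overlap for 33.4% of all genes tested. The split between rises and falls depended on scaling: quantile normalization gave 1333 rises and 1304 falls, or 50.6% rises in place of 61.7%, and at 0 µM it gave 1416 rises and 1606 falls. The median change of all genes was 0.03, and it moved by less than 0.1 under either other scaling, so the list medians below stand against a centre near 0.

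Of the 1665 rises at 5 µM, 937 were also rises at 0 µM, 56.3% of the list at 5 µM and 56.5% of the list at 0 µM. Of the 1034 falls, 415 were shared, 40.1% at 5 µM and 34.0% at 0 µM. Without day 1 replicate 3, 864 rises (61.5% at 5 µM and 50.3% at 0 µM) and 395 falls (47.4% and 31.4%) were shared. The change itself differed between the doses for 751 genes, more positive at 5 µM for 394 (3.04%) and more negative for 357 (2.76%). Without day 1 replicate 3 those numbers were 298 and 309. The genes are described by 33 lists, ordered by function. Their counts stand against the shares over all genes tested: 12.9% rises and 7.99% falls at 5 µM, and 12.8% and 9.42% at 0 µM.

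**Figure D2:**
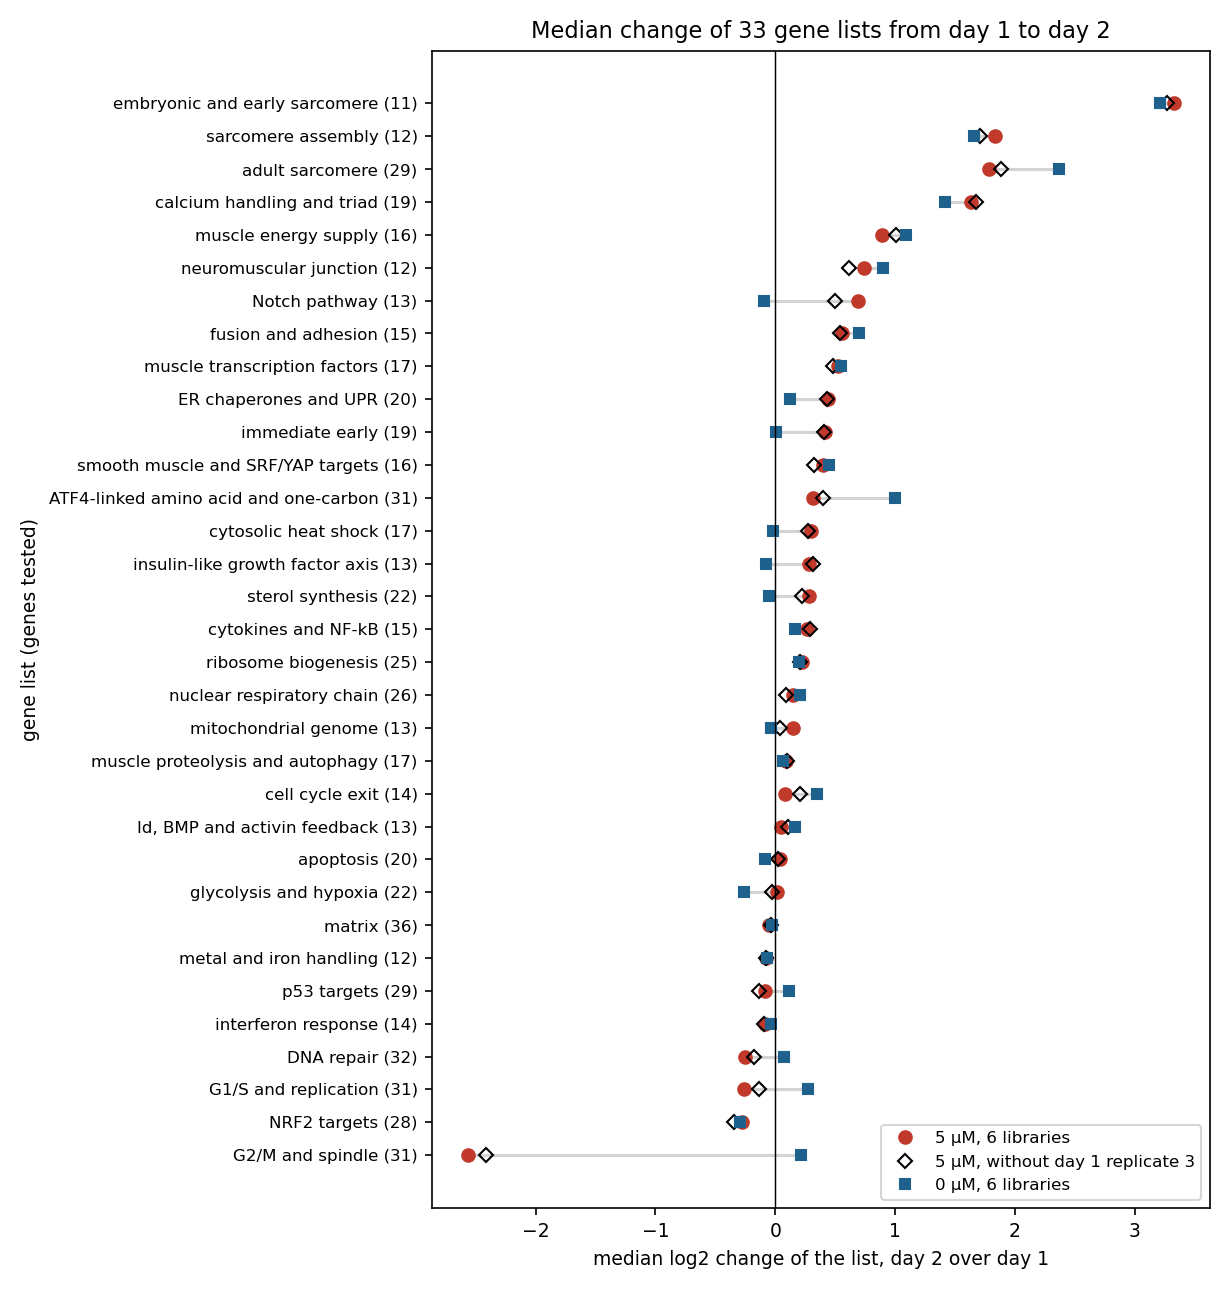
Median log2 change from day 1 to day 2 of 33 gene lists (vertical, genes tested in brackets) at 5 µM with all 6 libraries (red), at 5 µM without day 1 replicate 3 (open diamonds) and at 0 µM (blue squares). The sarcomere lists lie far to the right at both doses, and the G2/M list lies at -2.57 at 5 µM and 0.22 at 0 µM.

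RNA of the muscle program rose at 5 µM over this day, in regulators, fusion genes and genes of contractile and calcium proteins. Of 17 muscle transcription factors tested, 12 rose and none fell (10 without day 1 replicate 3), with a median change of 0.53, while 9 rose and 2 fell at 0 µM. Myog, which encodes myogenin and starts terminal differentiation, measured 274, 334 and 352 scaled CPM in the 5 µM day 2 libraries and 82.8, 90.8 and 57.8 in the 5 µM day 1 libraries. The days did not overlap, and Myog rose by 2.06 (SE 0.13, adjusted p = 7.45e-15), or by 1.86 without day 1 replicate 3 (adjusted p = 5.28e-14). Mef2c, a partner of myogenin at muscle promoters, had 24.1, 23.0 and 23.7 on day 2 and 2.98, 3.56 and 2.33 on day 1, a rise of 2.65 (SE 0.14, adjusted p = 2.68e-16), 2.53 without day 1 replicate 3 (adjusted p = 1.12e-14). Myod1, the determination factor that opens muscle genes, rose by 0.80 (SE 0.10, adjusted p = 3.40e-07), 0.71 without day 1 replicate 3 (adjusted p = 1.37e-05). Among the others, the muscle methyltransferase gene Smyd1 rose by 1.79 [1.76], the RNA-binding splicing regulator gene Rbm24 by 1.75 [1.85] and the TEAD factor gene Tead4 by 1.69 [1.62]. In bulk samples such as these, fewer cells of a type and less RNA per cell cannot be told apart.

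Myf5, the other determination factor and a marker of proliferating myoblasts, moved in opposite directions at the 2 doses. It had 141, 131 and 138 scaled CPM on day 2 and 99.3, 96.2 and 94.5 on day 1 at 5 µM, with no overlap, and rose by 0.49 (SE 0.12, adjusted p = 0.00217), 0.48 without day 1 replicate 3 (adjusted p = 0.0109). At 0 µM it had 40.1, 46.5 and 43.0 on day 2 and 51.3, 71.5 and 70.2 on day 1 and fell by 0.55 (adjusted p = 0.000606). The changes differed by 1.04 (adjusted p = 5.51e-05, or 0.000253 without day 1 replicate 3).

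Of 15 fusion and adhesion genes, 11 rose and none fell (11 and 1 without day 1 replicate 3), with a median of 0.56. Tmem8c, which encodes the membrane fusion protein myomaker, measured 319, 361 and 351 on day 2 and 46.2, 42.1 and 38.4 on day 1 at 5 µM. It rose by 3.00 (SE 0.12, adjusted p = 1.67e-20), 2.93 without day 1 replicate 3 (adjusted p = 1.22e-18), which was 0.80 more than at 0 µM (adjusted p = 0.00131, or 0.00661 without that library). Gm7325, which encodes the micropeptide myomixer that completes fusion, measured 23.8, 28.0 and 26.4 on day 2 and 8.40, 4.29 and 4.57 on day 1. It rose by 2.05 (SE 0.19, adjusted p = 1.73e-10), 1.94 without day 1 replicate 3 (adjusted p = 7.88e-09). Tmem182, a muscle membrane protein gene, rose by 2.87, or by 2.83 without that library. Cav3, the muscle caveolin, had 3.19, 3.96 and 7.23 on day 2 and 0.0427, 0.818 and 0.401 on day 1 at 5 µM, against 48.6, 44.0 and 49.7 on day 2 and 0.347, 1.15 and 0.589 on day 1 at 0 µM. It rose by 2.00 [2.01] at 5 µM (SE 0.30, adjusted p = 2.96e-06) and by 4.86 at 0 µM, a difference of -2.86 (adjusted p = 1.31e-05) that did not pass in edgeR (adjusted p = 0.0755).

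All 11 genes of embryonic and early sarcomeres rose at both doses, with a median of 3.33 at 5 µM (3.27 without day 1 replicate 3) and 3.21 at 0 µM. Their summed level was 2649, 2803 and 2779 scaled CPM on day 2 and 299.8, 278 and 227 on day 1. Myh3, the embryonic myosin heavy chain, measured 231, 221 and 159.8 on day 2 and 12.6, 12.3 and 9.07 on day 1 and rose by 4.05 (SE 0.16, adjusted p = 7.64e-20), 3.91 without day 1 replicate 3 (adjusted p = 3.57e-18). Myl4, the embryonic myosin light chain, measured 77.2, 102 and 98.4 on day 2 and 2.69, 4.25 and 2.13 on day 1 and rose by 4.57 (SE 0.17, adjusted p = 5.27e-21), 4.40 without day 1 replicate 3 (adjusted p = 1.85e-19). In none of these genes did a day 1 library reach a day 2 library. The rise of Myl4 was smaller at 5 µM than at 0 µM, with a difference of -1.14 (adjusted p = 0.00175). The rise of Actc1, the cardiac actin that embryonic muscle uses, was larger at 5 µM by 1.08 (adjusted p = 0.000303, or 0.00208 without day 1 replicate 3).

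Of 29 adult sarcomere genes, 25 rose with and without day 1 replicate 3 and none fell, with a median of 1.78, and 26 rose at 0 µM. Acta1, the skeletal actin, measured 1252, 1465 and 1380 scaled CPM on day 2 and 115, 123 and 98.3 on day 1 at 5 µM. It rose by 3.60 (SE 0.09, adjusted p = 2.40e-25), 3.51 without day 1 replicate 3 (adjusted p = 6.07e-24), and by 2.54 at 0 µM, so that the change at 5 µM was larger by 1.06 (adjusted p = 4.11e-07). Tnnt3, the fast troponin T, measured 165, 168 and 160.5 on day 2 and 14.2, 12.3 and 12.5 on day 1 and rose by 3.56 (SE 0.10, adjusted p = 7.09e-24), 3.54 without day 1 replicate 3 (adjusted p = 5.18e-22). The difference from 0 µM was -0.02 for Tnnt3 (adjusted p = 0.981), with changes of 3.56 at 5 µM and 3.58 at 0 µM. Mylpf, the fast regulatory light chain, rose by 3.63 [3.49], the fast myosin gene Myh1 by 3.61 [3.23] and the fast troponin C gene Tnnc2 by 3.58 [3.45]. The 4 adult sarcomere genes that did not pass were Myl2 (0.15 [0.15]), Myl3 (0.13 [0.13]), Myoz1 (0.70 [0.70]) and Myot (0.27 [0.27]). Many adult sarcomere genes were near 0 on day 1, and log2(value + 1) understates their change: the median of the list was 3.62 in edgeR. The direction in which this list differed from 0 µM was not the same in every test: in limma 3 changes were more positive and 6 more negative at 5 µM (2 and 7 without day 1 replicate 3), against 5 and 2 in edgeR and 6 and 2 in DESeq2. In limma a pseudocount of 0.5 gave 3 and 5 and a pseudocount of 5 gave 2 and 9. Acta1 and Mylpf were more positive at 5 µM in limma and edgeR.

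Day 2 levels at 5 µM lay between the 2 untreated days for most sarcomere and calcium genes and for few fusion genes. The 5 µM day 2 mean exceeded the 0 µM day 1 mean for all 29 adult sarcomere genes and was below the 0 µM day 2 mean for 27 of them. The same 2 counts were 11 and 11 of 11 for the early sarcomere genes and 16 and 19 of 19 for calcium handling genes. They were 9 and 10 of 12 for assembly, 11 and 14 of 16 for energy supply, 12 and 10 of 17 for transcription factors and 7 and 11 of 12 for the neuromuscular junction. Of the 15 fusion and adhesion genes, 5 had a 5 µM day 2 mean above the 0 µM day 1 mean and 13 one below the 0 µM day 2 mean. As a sum, the adult sarcomere list averaged 6992 scaled CPM in 5 µM day 2 cells and 1852 in 5 µM day 1 cells (1946 without replicate 3), against 16770 in 0 µM day 2 cells and 4125 in 0 µM day 1 cells. These are descriptions of levels, with no test across doses.

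**Figure D3:**
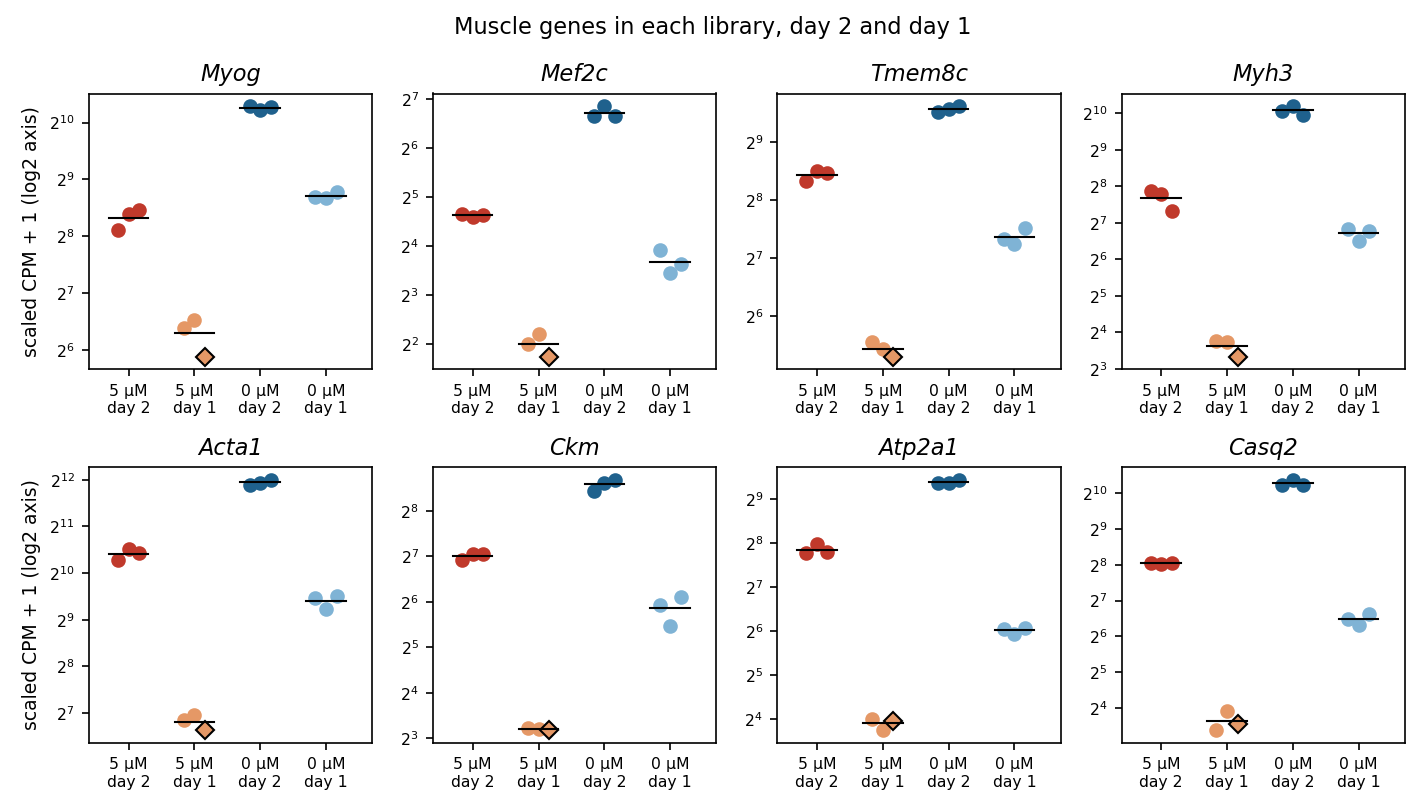
Scaled CPM plus 1, on a log2 axis, of 8 muscle genes in each of the 3 libraries of 5 µM day 2, 5 µM day 1, 0 µM day 2 and 0 µM day 1, with group means as lines and day 1 replicate 3 at 5 µM as an outlined diamond. In each panel the 5 µM day 2 points lie above all 5 µM day 1 points and below the 0 µM day 2 points.

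Most genes of sarcomere assembly and calcium handling also rose. Of 12 assembly genes, 11 rose (median 1.83, or 1.71 without day 1 replicate 3, with the same count): the thin filament nucleator genes Lmod2 and Lmod3 rose by 3.27 [3.19] and 3.14 [3.03], the kelch protein gene Klhl41 by 2.60 [2.34] and the myosin chaperone gene Unc45b by 2.38 [1.96]. Of 19 genes of calcium handling and the triad, 18 rose either way, with a median of 1.64. Atp2a1, the calcium pump SERCA1 of the sarcoplasmic reticulum, measured 218, 249 and 220.2 on day 2 and 14.9, 12.3 and 14.5 on day 1 and rose by 3.95 (SE 0.11, adjusted p = 5.28e-24), 3.98 without day 1 replicate 3 (adjusted p = 3.30e-22). Casq2, a calcium buffer of that store, measured 265, 258 and 266 on day 2 and 9.38, 13.9 and 10.6 on day 1 and rose by 4.44 (SE 0.14, adjusted p = 3.84e-23), 4.41 without day 1 replicate 3 (adjusted p = 3.87e-21). Both genes were separated between the days by more than the whole range within either day. The voltage sensor gene Cacna1s rose by 3.78 [3.77], the sarcalumenin gene Srl by 3.08 [2.98] and Hrc by 2.98 [2.71]. Atp2a1 rose more than at 0 µM by 0.57 (adjusted p = 0.0238, or 0.0299 without day 1 replicate 3), and Casq2 by 0.63 (adjusted p = 0.0483, which did not pass without that library at 0.107).

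The promoters of Atp2a1 and Casq2 are printed because they are 2 of the largest rises and each holds a muscle motif. The windows run from 250 bases before to 50 bases after the start, from RefSeq on GRCm38.p6, 5′ to 3′ on the gene's strand, at chr7:126463024-126463323 on the minus strand and chr3:102086165-102086464 on the plus strand. Capitals mark an E-box CAGCTG, the sequence class that myogenin and MyoD bind, in Atp2a1, and a MEF2 site, the A and T rich element that MEF2 proteins bind, in Casq2.
Atp2a1: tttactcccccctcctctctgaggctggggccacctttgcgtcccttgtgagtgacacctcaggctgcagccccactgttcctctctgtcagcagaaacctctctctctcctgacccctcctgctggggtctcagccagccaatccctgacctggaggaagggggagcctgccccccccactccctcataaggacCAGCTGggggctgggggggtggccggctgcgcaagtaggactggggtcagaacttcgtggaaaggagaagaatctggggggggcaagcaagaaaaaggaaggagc
Casq2: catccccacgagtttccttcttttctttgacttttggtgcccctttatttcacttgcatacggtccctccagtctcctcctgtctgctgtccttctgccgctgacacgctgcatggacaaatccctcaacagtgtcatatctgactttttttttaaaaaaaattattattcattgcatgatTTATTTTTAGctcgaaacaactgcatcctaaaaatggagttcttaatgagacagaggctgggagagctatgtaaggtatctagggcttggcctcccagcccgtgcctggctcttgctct
The E-box, which reads the same on both strands, stood in 9 of 24 promoters (37.5%) of the 20 adult sarcomere genes with an entry, in 5 of 13 (38.5%) of the 11 early sarcomere genes, and in 16.3% of all 32851 promoters. The MEF2 site, searched on both strands, stood in 5 of the 24 adult sarcomere promoters (20.8%), in 1 of the 13 early sarcomere promoters (7.69%) and in 3.19% of all. The windows of Myog and Myl4, which also rose, were searched too and held no match to either motif as searched. The search took only CAGCTG and a fixed MEF2 pattern, so variants of either motif were not counted. A match describes the letters of the window and not binding.

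Of 12 neuromuscular junction genes, 8 rose (7 without day 1 replicate 3), with a median of 0.74. Chrng, the fetal acetylcholine receptor subunit, measured 119, 127 and 139 on day 2 and 22.9, 16.2 and 19.1 on day 1 and rose by 2.68 (SE 0.11, adjusted p = 9.58e-20), 2.67 without day 1 replicate 3 (adjusted p = 5.71e-18). Chrna1, the receptor's alpha subunit, rose by 0.75 with all libraries and 0.69 without day 1 replicate 3, and the scaffold adaptor gene Dok7 by 1.29 [1.38]. Of 16 muscle energy genes, 9 rose either way, with a median of 0.89. Ckm, the muscle creatine kinase, measured 120.0, 132 and 132 on day 2 and 8.27, 8.26 and 8.02 on day 1 and rose by 3.81 (SE 0.13, adjusted p = 2.33e-22), 3.79 without day 1 replicate 3 (adjusted p = 1.53e-20), more than at 0 µM by 1.06 (adjusted p = 9.96e-05). Pgam2, the muscle phosphoglycerate mutase, measured 33.6, 42.2 and 34.6 on day 2 and 2.09, 0.450 and 1.97 on day 1 and rose by 3.99 (SE 0.24, adjusted p = 3.52e-15), 4.15 without day 1 replicate 3 (adjusted p = 2.26e-14). The glycogen phosphorylase gene Pygm rose by 3.23 [3.56] and the myoglobin gene Mb by 2.98 [2.71], with 10.5, 11.3 and 15.7 scaled CPM of Mb on day 2 and 1.32, 0.777 and 0.161 on day 1.

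Mitosis genes fell at 5 µM over an interval in which none of them fell at 0 µM. All 31 genes of the G2/M and spindle list fell at 5 µM with all libraries and without day 1 replicate 3, with a median of -2.57 and -2.42. At 0 µM 1 of the 31 rose, with a median of 0.22, and the difference between the doses passed for all 31 genes either way. The changes of single genes ran from -3.76 to -1.47 (from -3.73 to -1.17 without that library). The summed list measured 222, 199 and 194 scaled CPM in the 5 µM day 2 libraries and 1099, 1012 and 1520 in the 5 µM day 1 libraries. Day 1 replicate 3 was the highest of its group for 26 of the 31 genes. The mean sum of the list on day 2 was 1210 at 0 µM, 786 at 2 µM and 205 at 5 µM. The day 1 sums averaged 1045 at 0 µM, 720.3 at 2 µM and 1211 at 5 µM, or 1056 at 5 µM without replicate 3. All 31 genes had a 5 µM day 2 mean below both untreated means.

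Cenpa, the histone H3 variant that marks centromeres, measured 1.31, 1.04 and 2.03 scaled CPM in the 5 µM day 2 libraries and 26.8, 36.3 and 33.5 in the 5 µM day 1 libraries. It fell by 3.76 (SE 0.21, adjusted p = 6.05e-16), and its change without day 1 replicate 3 was -3.73 (adjusted p = 4.51e-14). The difference from 0 µM, where Cenpa changed by 0.48 (adjusted p = 0.103), was -4.25 (adjusted p = 6.63e-12). Ccnb1, the cyclin that drives entry into mitosis, measured 4.99, 6.80 and 6.48 on day 2 and 65.1, 57.4 and 67.0 on day 1 at 5 µM. It fell by 3.18 (SE 0.15, adjusted p = 7.60e-18), with -3.14 without that library, and changed by 0.01 at 0 µM (adjusted p = 0.982). Outside the list, Cdc25c, the phosphatase that activates the mitotic kinase, measured 0.0438, 0.160 and 1.37 on day 2 and 13.3, 13.9 and 13.8 on day 1. It fell by 3.37 (SE 0.33, adjusted p = 8.24e-10), with -3.36 without day 1 replicate 3. In each of these genes the highest day 2 library was far below the lowest day 1 library.

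Cdc20, an activator of the complex that ends mitosis, measured 3.81, 6.80 and 4.89 on day 2 and 47.0, 47.2 and 58.5 on day 1 and fell by 3.10 (SE 0.20, adjusted p = 1.28e-14), with -2.99 without day 1 replicate 3. Ccnb2, the second B-type cyclin, measured 6.30, 1.88 and 4.23 on day 2 and 48.4, 29.6 and 46.3 on day 1 and fell by 3.11 (SE 0.28, adjusted p = 1.11e-10), with -3.02 without it. For both genes every day 2 library lay below every day 1 library. The kinesin genes Kif20a and Kif23 fell by 3.17 [-3.07] and 2.85 [-2.61], the centromere protein gene Cenpf by 3.08 [-2.61], the motility and spindle gene Hmmr by 2.96 [-2.86], and, outside the list, the securin gene Pttg1 by 3.05 [-3.13] and the spindle genes Knstrn and Troap by 3.15 [-3.10] and 2.55 [-2.44]. All of these passed without day 1 replicate 3, and none of them fell at 0 µM. Mki67, the proliferation antigen gene, rested on that library for its size: it measured 1.93, 2.28 and 0.397 on day 2 and 8.36, 7.77 and 91.8 on day 1. It fell by 3.05 with all libraries (SE 0.50, adjusted p = 1.55e-05) and by 1.93 without day 1 replicate 3 (adjusted p = 0.000110).

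The promoters of Ccnb2, Cdc20 and Cenpa are shown because these genes fell together and carry the elements known from G2/M promoters. They come from the same RefSeq windows on GRCm38.p6, at chr9:70421505-70421804 on the minus strand, chr4:118437294-118437593 on the minus strand and chr5:30666636-30666935 on the plus strand. Capitals mark TTTGAA, the core of the cell cycle genes homology region, and CCAAT boxes, which appear as ATTGG where they lie on the other strand.
Ccnb2: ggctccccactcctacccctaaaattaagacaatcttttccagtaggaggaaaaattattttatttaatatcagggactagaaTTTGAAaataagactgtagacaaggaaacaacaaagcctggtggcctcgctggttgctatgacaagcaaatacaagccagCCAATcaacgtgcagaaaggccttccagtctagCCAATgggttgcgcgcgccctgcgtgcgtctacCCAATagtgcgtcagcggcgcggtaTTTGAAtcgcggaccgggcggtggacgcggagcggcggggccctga
Cdc20: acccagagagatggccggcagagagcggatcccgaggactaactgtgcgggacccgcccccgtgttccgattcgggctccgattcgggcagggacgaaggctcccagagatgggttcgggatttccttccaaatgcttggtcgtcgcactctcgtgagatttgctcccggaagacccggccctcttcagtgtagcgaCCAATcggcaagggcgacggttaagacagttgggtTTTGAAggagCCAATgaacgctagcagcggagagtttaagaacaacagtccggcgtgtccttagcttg
Cenpa: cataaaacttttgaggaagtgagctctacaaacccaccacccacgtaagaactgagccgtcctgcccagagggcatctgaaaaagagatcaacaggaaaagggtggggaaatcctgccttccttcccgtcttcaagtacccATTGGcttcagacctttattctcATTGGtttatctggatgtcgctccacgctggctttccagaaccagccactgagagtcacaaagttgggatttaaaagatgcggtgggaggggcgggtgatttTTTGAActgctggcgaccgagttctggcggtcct
Searched on both strands, TTTGAA stood in 24 of 30 promoters (80.0%) of the 28 G2/M genes with an entry, in 3 of 26 (11.5%) of the 24 G1/S genes with an entry, and in 17.9% of all promoters. CCAAT stood in 25 of the 30 (83.3%), in 18 of the 26 (69.2%) and in 37.4% of all. The windows of Ccnb1 and Knstrn, which also fell, were searched too and are not printed: Ccnb1 held CCAAT boxes and no TTTGAA, and Knstrn held neither.

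**Figure D4:**
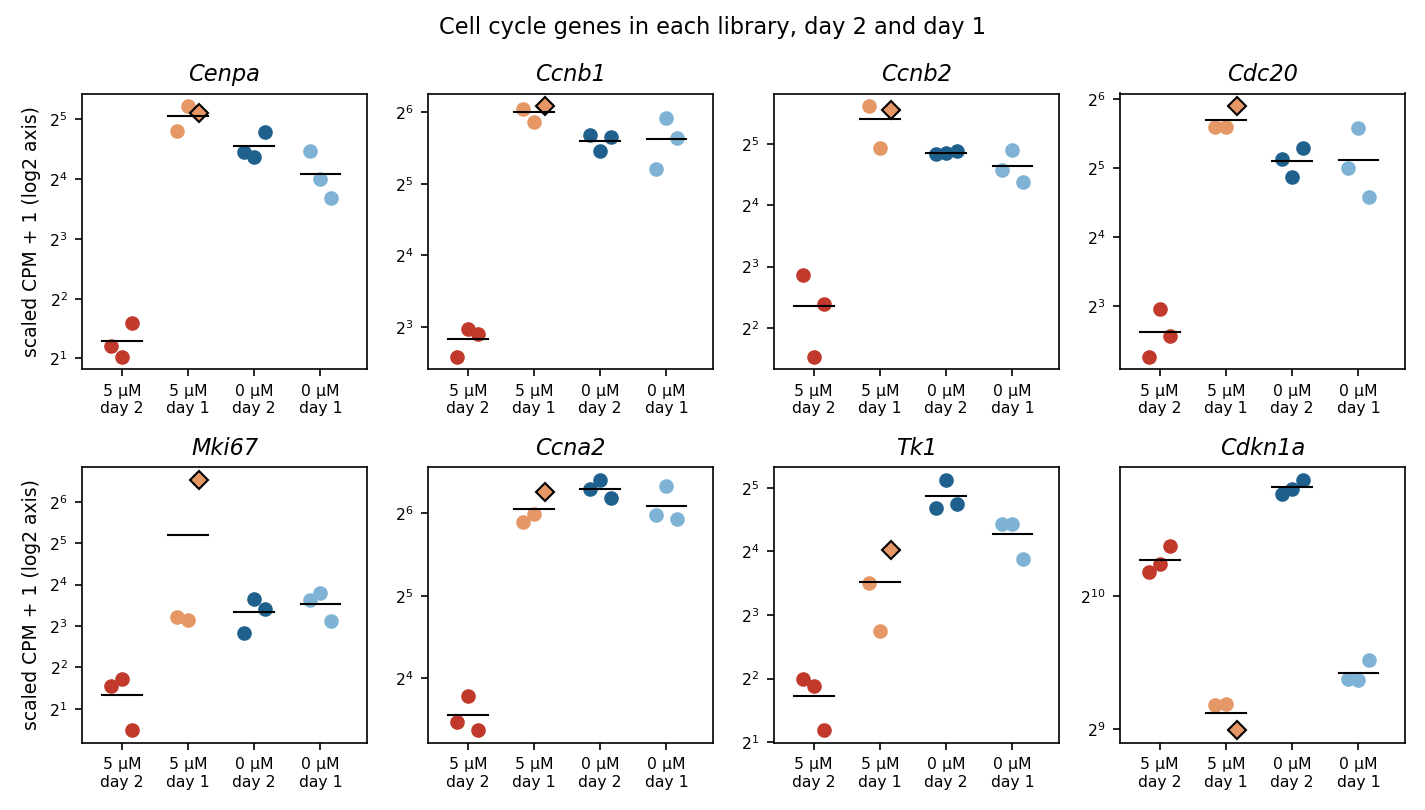
Scaled CPM plus 1, on a log2 axis, of 8 cell cycle genes in each library of 5 µM day 2, 5 µM day 1, 0 µM day 2 and 0 µM day 1, with group means as lines and day 1 replicate 3 at 5 µM as an outlined diamond. The first 7 genes are lowest in the 5 µM day 2 libraries, with Mki67 at 91.8 in the diamond, and Cdkn1a is higher on day 2 at both doses.

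Genes of DNA replication fell more often than they rose. Of 31 G1/S genes, 3 rose and 11 fell, with a median of -0.26. Without day 1 replicate 3 the count of falls was 6 and the median -0.13. Over all genes tested 12.9% rose and 7.99% fell, so the share of rises in the list was below that of all genes. That library was the highest of its group for 28 of the 31 genes. Ccna2, the cyclin of S phase and early mitosis, measured 10.1, 12.8 and 9.35 on day 2 and 58.4, 62.8 and 75.6 on day 1 and fell by 2.51 (SE 0.14, adjusted p = 7.19e-16), with -2.40 without it. Tk1, the thymidine kinase, measured 2.98, 2.68 and 1.28 on day 2 and 10.3, 5.69 and 15.3 on day 1 and fell by 1.74 (SE 0.25, adjusted p = 2.45e-06), with -1.44 without it. Mcm10, Uhrf1 and Prim1, which act at replication forks, fell by 1.32 [-1.22], 1.29 [-1.14] and 1.12 [-0.96]. Ccne1, the cyclin of S phase entry, rose by 0.92 [1.25] and the ribonucleotide reductase genes Rrm1 and Rrm2 by 0.52 [0.64] and 0.46 [0.58], all 3 also without day 1 replicate 3. The difference from 0 µM passed for 9 of the 31 genes, all more negative at 5 µM (6 without that library).

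Of 14 genes of cell cycle exit, 3 rose and 1 fell (3 and none without day 1 replicate 3), beside 12.9% rises and 7.99% falls over all genes tested. Cdkn1a, the p21 inhibitor of cyclin-dependent kinases, measured 1158, 1211 and 1325 on day 2 and 578, 582 and 507 on day 1 and rose by 1.15 (SE 0.09, adjusted p = 3.08e-12), 1.08 without day 1 replicate 3 (adjusted p = 1.34e-10). Ccnd3, the cyclin D of differentiating muscle, rose by 1.42 [1.34] and Rb1, the retinoblastoma gene, by 1.08 [0.97]. The fall of Cdkn2c (-0.42 [-0.25]) did not pass without day 1 replicate 3 (adjusted p = 0.292). Ccnd1, the cyclin D of proliferating cells, measured 91.1, 91.1 and 99.8 on day 2 and 81.6, 74.9 and 81.3 on day 1, a change of 0.24 [0.26] that did not pass (adjusted p = 0.118), while it changed by -0.57 at 0 µM (adjusted p = 0.000153). The difference for Ccnd1 was 0.81 (adjusted p = 0.000598).

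DNA damage genes showed no common rise over this day. Of 32 DNA repair genes, none rose in limma, edgeR or at an unadjusted p below 0.05, and 9 fell (4 without day 1 replicate 3, 10 in edgeR), with a median of -0.25. Fancd2, Fanci and Fanca, which act in the repair of cross-linked DNA, fell by 1.68 [-1.59], 1.60 [-1.38] and 1.44 [-1.15] and passed without that library, while Neil3 (-1.17 [-0.51]) and Rad51ap1 (-1.13 [-0.88]) did not (adjusted p = 0.425 and 0.112). Of 29 p53 targets, 5 rose and 4 fell, with a median of -0.08 (4 and 4 without day 1 replicate 3), against 10 and 1 at 0 µM. Over all genes tested 12.9% rose and 7.99% fell at 5 µM. The p53 list sum averaged 2408 scaled CPM on day 1 at 5 µM (2522 without replicate 3), against 2048 at 0 µM. On day 1, 24 of its 29 genes had the higher mean at 5 µM. The day 2 sums averaged 3198 at 5 µM and 3502 at 0 µM, with 8 of the 29 genes lower at 5 µM and no test across doses. Besides Cdkn1a, the kinase gene Plk2 rose by 1.05 [1.00], with 271, 247 and 222 on day 2 and 123, 122 and 109.6 on day 1 and no overlap, and Aen, a nuclease gene, by 0.56 [0.39]. The spindle gene Psrc1 fell by 1.32 [-1.34] and the death receptor gene Tnfrsf10b by 0.53 [-0.55]. Mdm2, the ligase that limits p53, measured 116, 97.3 and 106 on day 2 and 105, 114 and 90.3 on day 1, with overlapping days and a change of 0.05 [-0.05] (adjusted p = 0.798). Its mean was 103.3 on day 1 and 106.5 on day 2 at 5 µM, against 63.4 and 86.4 at 0 µM. The Mdm2 difference from 0 µM was -0.40 and did not pass in limma with all libraries (adjusted p = 0.0947). Without day 1 replicate 3 that difference was -0.49 and passed (adjusted p = 0.0370).

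No gene of the oxidant defence list rose over this day at 5 µM, but the list stood above 0 µM on day 1. Its sum averaged 8226 scaled CPM on day 1 at 5 µM (8563 without replicate 3), against 5243 at 0 µM. On day 1, 26 of its 28 genes had the higher mean at 5 µM. The day 2 sums averaged 5589 at 5 µM and 3849 at 0 µM, with 4 of the 28 genes lower at 5 µM. These levels were not tested across doses. Of 28 NRF2 targets, none rose in limma, edgeR or at an unadjusted p below 0.05 and 12 fell, with the same count without day 1 replicate 3 and a median of -0.28, against 1 rise and 13 falls at 0 µM. Nqo1, the quinone reductase, measured 15.4, 12.0 and 12.6 on day 2 and 45.1, 41.5 and 40.8 on day 1 and fell by 1.61 (SE 0.19, adjusted p = 5.51e-08), with -1.64 without that library. Ftl1, the ferritin light chain, measured 1312, 1379 and 1627 on day 2 and 3095, 3173 and 2726 on day 1 and fell by 1.06 (SE 0.10, adjusted p = 2.59e-10), with -1.13 without it. The glutathione transferase gene Gsta4 fell by 1.20 [-1.33], the sulfiredoxin gene Srxn1 by 0.99 [-1.09] and the transketolase gene Tkt by 0.94 [-0.94]. Quantile normalization raised the count of falling NRF2 targets to 21. Hmox1, the heme oxygenase, measured 43.5, 53.6 and 57.8 on day 2 and 47.9, 55.5 and 52.3 on day 1, with overlapping days (change -0.01 [-0.01], adjusted p = 0.972). The metallothionein genes Mt1 and Mt2 were lower in every day 2 library, Mt1 at 149, 156 and 175 on day 2 and 212, 235 and 218 on day 1, but their changes of -0.47 [-0.48] and -0.66 [-0.75] did not pass (adjusted p = 0.210 and 0.168). That depended on the libraries that gave the spread: the fit includes 2 µM day 1, where Mt1 averaged 399.6 ± 350 and Mt2 428.9 ± 479.7 scaled CPM (SD, n = 3), and whose replicate 1 holds 82 genes of at least 5 scaled CPM that stay below 1 elsewhere. Without that library and day 1 replicate 3 at 5 µM, both falls passed in limma (adjusted p = 0.00320 for Mt1 and 3.34e-05 for Mt2), as they did when limma was fitted to the compared groups only (0.00179 and 0.000431). Of 12 metal and iron genes, Tfrc, the transferrin receptor (1.25 [1.13]), and Slc11a2, an iron transporter (0.57 [0.45]), rose, and Ftl1 and Slc40a1, the iron exporter (-0.79 [-0.79]), fell, with all 4 called either way.

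Many genes of amino acid supply rose less at 5 µM than at 0 µM. Of 31 genes linked to the stress factor ATF4, 14 rose and 3 fell at 5 µM, with the same counts without day 1 replicate 3, against 24 rises and no fall at 0 µM. The difference passed for 15 genes, all more negative at 5 µM (14 without that library), and the median change was 0.31 at 5 µM and 1.00 at 0 µM. Asns, asparagine synthetase, measured 27.5, 39.2 and 38.0 on day 2 and 16.4, 18.0 and 28.2 on day 1 at 5 µM, where replicate 3 of day 1 was just above the lowest day 2 library, against 188, 211 and 180.5 on day 2 and 37.2, 39.9 and 47.3 on day 1 at 0 µM. It rose by 0.74 at 5 µM (SE 0.16, adjusted p = 0.000982), 0.97 without day 1 replicate 3 (adjusted p = 3.18e-05), and by 2.20 at 0 µM, a difference of -1.46 (adjusted p = 4.73e-05). Slc7a5, an importer of large amino acids, rose by 0.99 [1.06] at 5 µM and 2.19 at 0 µM. Mthfd2, a mitochondrial folate enzyme, measured 27.8, 29.5 and 25.4 on day 2 and 3.67, 8.30 and 18.4 on day 1 and rose by 1.59, or 2.11 without day 1 replicate 3. Aldh1l2, another mitochondrial folate enzyme, went the other way: it measured 1.71, 1.64 and 2.42 on day 2 and 4.69, 5.48 and 5.70 on day 1 and fell by 1.11 [-1.06] (SE 0.24, adjusted p = 0.000608), while it rose by 1.94 at 0 µM, a difference of -3.05 (adjusted p = 6.61e-08). Pck2, the mitochondrial PEP carboxykinase, fell by 1.40 at 5 µM (with -1.52 without that library).

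Most chaperones of the endoplasmic reticulum rose at 5 µM, and 5 of them changed more there than at 0 µM. They rose from a lower day 1 level: the list sum averaged 3403 scaled CPM at 5 µM (3433 without replicate 3) and 5331 at 0 µM. On day 1, 2 of the 20 genes had the higher mean at 5 µM. The day 2 sums averaged 4900 at 5 µM and 5783 at 0 µM, with 18 of the 20 genes lower at 5 µM. These levels were not tested across doses. Of 20 genes, 16 rose and none fell at 5 µM (14 without day 1 replicate 3), with a median of 0.44, against 4 rises and 1 fall at 0 µM with a median of 0.12. Under quantile normalization 12 rose and 1 fell. Hspa5, the chaperone BiP, measured 755, 735 and 634 on day 2 and 335, 314 and 316 on day 1 at 5 µM, against 839, 879.8 and 806 on day 2 and 743, 738 and 716 on day 1 at 0 µM. It rose by 1.13 (SE 0.07, adjusted p = 4.04e-15), 1.12 without day 1 replicate 3 (adjusted p = 1.39e-13), and by 0.20 at 0 µM, a difference of 0.93 (adjusted p = 2.11e-08). Calr, the calcium-binding chaperone calreticulin, measured 885, 906 and 912 on day 2 and 576, 543 and 519.9 on day 1 and rose by 0.72 (SE 0.07, adjusted p = 2.59e-10), 0.69 without day 1 replicate 3 (adjusted p = 8.14e-09), with a difference from 0 µM of 0.71 (adjusted p = 2.88e-06). Hsp90b1, Pdia3 and Dnajc3, chaperones or folding enzymes of the same compartment, were among the other members whose change was more positive at 5 µM (differences of 0.47, 0.38 and 0.49), of which Dnajc3 did not pass without day 1 replicate 3 (adjusted p = 0.0979). Herpud1, a component of ER-associated degradation, rose by 0.48 [0.44] at 5 µM and by 1.15 at 0 µM, a difference of -0.67 (adjusted p = 0.00326).

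The promoters of Hspa5 and Calr are shown because their change differed between the doses and both hold an ER stress element, CCAAT and CCACG 9 bases apart. The RefSeq windows on GRCm38.p6 lie at chr2:34771840-34772139 on the plus strand and chr8:84846882-84847181 on the minus strand, and capitals mark the whole element, which lies on the other strand in Calr.
Hspa5: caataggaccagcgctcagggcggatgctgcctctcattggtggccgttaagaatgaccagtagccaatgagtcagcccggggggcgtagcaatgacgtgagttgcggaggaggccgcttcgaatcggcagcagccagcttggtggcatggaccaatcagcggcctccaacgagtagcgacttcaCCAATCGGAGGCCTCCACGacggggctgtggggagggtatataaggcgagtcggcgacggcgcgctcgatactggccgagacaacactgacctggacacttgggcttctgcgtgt
Calr: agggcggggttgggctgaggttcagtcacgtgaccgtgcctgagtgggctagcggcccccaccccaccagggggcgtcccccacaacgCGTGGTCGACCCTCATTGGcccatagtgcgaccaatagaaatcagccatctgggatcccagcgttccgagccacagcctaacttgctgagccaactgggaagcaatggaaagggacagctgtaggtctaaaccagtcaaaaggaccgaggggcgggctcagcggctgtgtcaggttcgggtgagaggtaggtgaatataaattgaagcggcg
Searched on both strands, the element stood in 8 of 18 promoters (44.4%) of the 18 ER chaperone genes with an entry and in 39 of all 32851 promoters (0.119%). CCAAT alone, which the element contains, stood in 16 of the 18 (88.9%) and in 37.4% of all.

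Of 17 cytosolic heat shock genes, 9 rose and 1 fell (7 and 1 without day 1 replicate 3). The muscle small heat shock gene Hspb2 rose by 1.56 [1.50] and Hspb8 by 0.74 [0.68], the Hsp110 gene Hsph1 rose by 0.74 [0.76], and Hspb6 fell by 1.12 [-1.04]. Of 22 sterol synthesis genes, 11 rose and 1 fell at 5 µM (9 and 1 without day 1 replicate 3), against 2 rises at 0 µM, and 6 changes were more positive at 5 µM (4 without that library). The sterol list sum averaged 2903 scaled CPM on day 1 at 5 µM (3029 without replicate 3) and 3908 at 0 µM, and none of the 22 genes had the higher day 1 mean at 5 µM. The day 2 sums averaged 3591 at 5 µM and 3877 at 0 µM, with no test across doses. Hsd17b7, an enzyme of the late pathway, measured 117, 105 and 97.1 on day 2 and 48.6, 53.7 and 50.4 on day 1, with no overlap. It rose by 1.04 (SE 0.12, adjusted p = 1.15e-08), 1.04 without day 1 replicate 3 (adjusted p = 2.30e-07), with a difference from 0 µM of 1.11 (adjusted p = 1.52e-05). Hmgcs1, at the entry to the pathway, rose by 0.51 [0.42] and Dhcr7, at its end, by 0.70 [0.70], while the phosphomevalonate kinase gene Pmvk fell by 0.76 [-0.81].

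**Figure D5:**
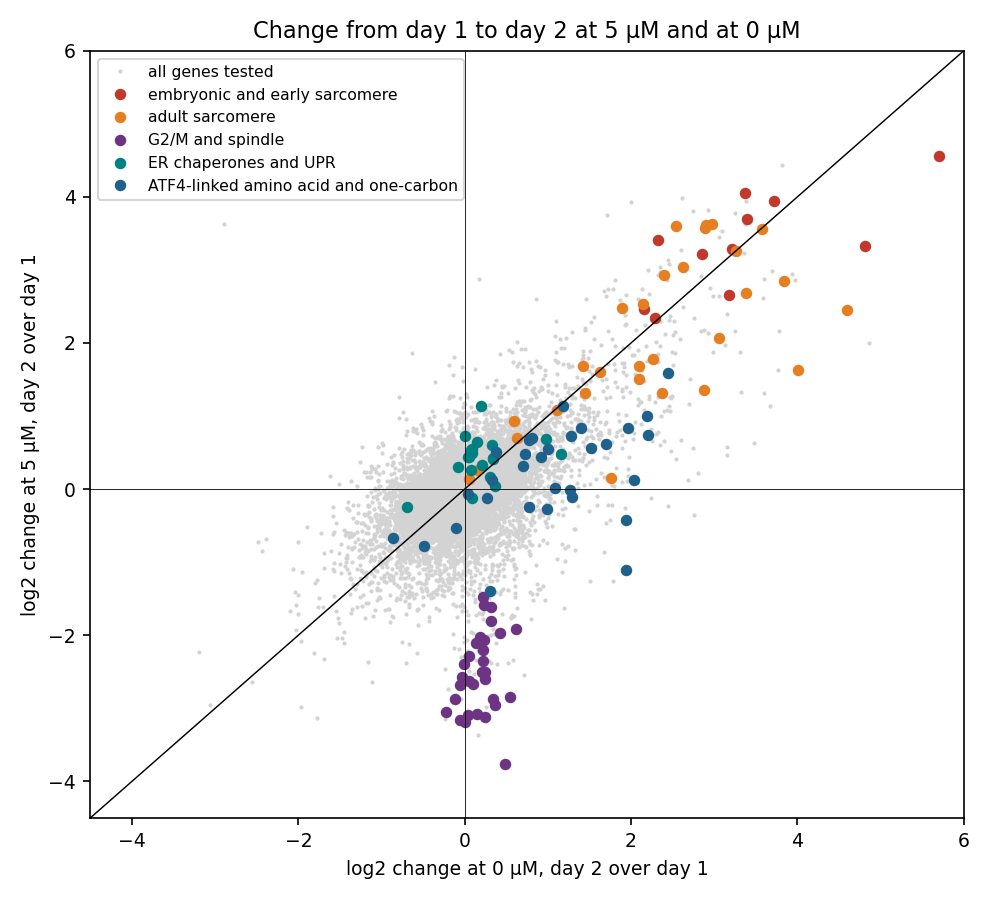
Log2 change from day 1 to day 2 at 5 µM (vertical) against that at 0 µM (horizontal) for all 12946 genes tested (grey) and 5 gene lists, with the line of equal change. G2/M genes lie below 0 at 5 µM and near 0 at 0 µM, ATF4-linked genes mostly below the line, ER chaperones mostly above it, and sarcomere genes high on both axes.

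Of 13 Notch pathway genes, 7 rose and none fell at 5 µM (6 without day 1 replicate 3), against 3 rises and 3 falls at 0 µM. Heyl, a transcriptional target of Notch receptors, measured 121, 145 and 140.0 on day 2 and 42.7, 53.8 and 39.6 on day 1 and rose by 1.56 (SE 0.14, adjusted p = 6.33e-11), 1.47 without day 1 replicate 3 (adjusted p = 3.83e-09), with a change of -0.14 at 0 µM and a difference of 1.71 (adjusted p = 1.31e-07). Hey1, a related target, rose by 0.90 [0.85] and the receptor gene Notch1 by 0.90 [0.96], both called without that library too, and the ligand gene Jag1 rose by 0.89 [0.85] and stood at the threshold without it (adjusted p = 0.0496). Hey1 averaged 12.4 on day 1 and 24.4 on day 2 at 5 µM, against 28.4 and 26.1 at 0 µM. Median-of-ratios scaling added 1 fall and quantile normalization 2 falls among the Notch genes. Of 19 immediate early genes, 9 rose and 2 fell (7 and 1 without day 1 replicate 3, and 6 and 2 under median-of-ratios scaling), against 1 rise and 2 falls at 0 µM. Egr1, which growth factors and stress induce, measured 101, 109 and 103 on day 2 and 50.9, 64.8 and 57.8 on day 1 and rose by 0.84 (SE 0.11, adjusted p = 4.48e-07), 0.85 without day 1 replicate 3 (adjusted p = 5.31e-06), 0.96 more than at 0 µM (adjusted p = 8.34e-05). At 0 µM Egr1 averaged 116 on day 1 and 107 on day 2, so its 5 µM mean was lower on day 1 and near that level on day 2.

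Of 16 smooth muscle and SRF or YAP target genes, 9 rose and 1 fell, with the same counts without day 1 replicate 3. Ctgf, a YAP target, measured 44.0, 52.0 and 58.4 on day 2 and 16.7, 13.3 and 17.4 on day 1 and rose by 1.64 (SE 0.17, adjusted p = 2.68e-09), 1.71 without day 1 replicate 3 (adjusted p = 1.87e-08), with a difference from 0 µM of 1.51 (adjusted p = 4.92e-05). Acta2, the smooth muscle actin that early myotubes also make, rose by 1.41 [1.35] at 5 µM and 1.36 at 0 µM. Of 36 matrix genes, 7 rose and 9 fell (4 and 8 without that library): the proteoglycan gene Dcn rose by 2.30 [2.16], and the collagen gene Col6a3 and the nidogen gene Nid1 fell by 0.92 [-0.91] and 0.84 [-0.90]. Col1a1, the main fibrillar collagen, had overlapping days and a change of -0.22 [-0.20] (adjusted p = 0.758). Fbln5, an elastic fibre gene, fell by 0.96 [-1.06] at 5 µM and rose by 1.11 at 0 µM, a difference of -2.06 (adjusted p = 0.000500).

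Of 13 genes of the insulin-like growth factor axis, 4 rose and 3 fell either way. H19, the imprinted noncoding RNA beside Igf2, measured 4938, 5296 and 5463 on day 2 and 768, 751 and 562 on day 1 and rose by 2.93 (SE 0.12, adjusted p = 2.48e-19), 2.78 without day 1 replicate 3 (adjusted p = 3.57e-18). Igf2, the growth factor itself, measured 46.3, 42.1 and 46.4 on day 2 and 1.45, 2.54 and 47.4 on day 1. Day 1 replicate 3 was above all 3 day 2 libraries while the other day 1 libraries were far below them. Igf2 rose by 2.62 with all 6 libraries (SE 0.51, adjusted p = 0.000226) and by 3.96 without day 1 replicate 3 (adjusted p = 7.01e-15). The binding protein genes Igfbp7 and Igfbp2 fell by 1.49 [-1.46] and 0.71 [-0.75], and the receptor gene Igf1r rose by 0.75 [0.79]. Of 13 Id, BMP and activin genes, 2 rose and 1 fell (3 and 1 without that library), and Id1, an inhibitor of MyoD, did not pass (change -0.05 [-0.21], adjusted p = 0.914). Fst, the secreted activin and myostatin inhibitor follistatin, measured 8.89, 10.4 and 4.06 on day 2 and 4.26, 2.21 and 2.17 on day 1 with 1 day 1 library above the lowest day 2 library. It rose by 1.14 at 5 µM (SE 0.29, adjusted p = 0.00424), 1.01 without day 1 replicate 3 (adjusted p = 0.0274), and by 3.67 at 0 µM, a difference of -2.54 (adjusted p = 7.00e-05).

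The remaining lists stand beside 12.9% rises and 7.99% falls over all genes tested. Most of them held a larger share of rises than that, while the mitochondrial genome and interferon lists held none. Of 17 genes of muscle proteolysis and autophagy, 4 rose and 3 fell (3 and 2 without day 1 replicate 3), with the sarcomere ligase genes Trim63, Trim54 and Trim55 up by 2.30 [2.17], 1.73 [1.70] and 1.14 [1.09] and Fbxo32 at -0.01 [-0.12] (adjusted p = 0.962). Of 22 glycolysis and hypoxia genes, 4 rose and 2 fell at 5 µM (4 and 3 without that library), against 6 and 9 at 0 µM: Pfkp, the platelet phosphofructokinase, rose by 0.70 [0.64] (SE 0.08, adjusted p = 4.95e-08) where it fell by 0.36 at 0 µM, and the glucose transporter gene Slc2a1 fell by 0.83 [-0.83]. Of 25 ribosome biogenesis genes, 8 rose and none fell, but without day 1 replicate 3 the counts were 4 and 1. None of the 13 genes of the mitochondrial genome passed in limma, edgeR or DESeq2 with all libraries, and 1 was lower at an unadjusted p below 0.05. Without day 1 replicate 3 that count in limma was 1 fall, and under quantile normalization 2 falls. The mitochondrial genome took 10.3% ± 0.856 of reads on day 2 and 10.1% ± 1.28 on day 1 (SD, n = 3 each), and 10.7% on day 1 without replicate 3. An exact permutation test over the 6 libraries gave p = 0.9 (two-sided), where 3 against 3 cannot go below 0.1. Of 26 nuclear respiratory chain genes 5 rose (4 without day 1 replicate 3), of 15 cytokine and NF-kB genes 4 rose (2 without day 1 replicate 3), of 14 interferon genes 1 fell either way, and of 20 apoptosis genes 5 rose and 2 fell (4 and 1).

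Single genes outside the lists stood out by size. Tceal7 measured 28.3, 28.4 and 32.0 on day 2 and 1.32, 1.19 and 0.602 on day 1 and rose by 3.92 (SE 0.21, adjusted p = 2.61e-16), 3.76 without day 1 replicate 3 (adjusted p = 1.12e-14), which was 1.92 more than at 0 µM (adjusted p = 4.02e-05). Smpx, a small protein of striated muscle, rose by 3.83 (SE 0.25, adjusted p = 2.06e-14), 4.06 without day 1 replicate 3 (adjusted p = 3.97e-14). Prl2c2, of the proliferin family, measured 2.71, 1.40 and 2.47 on day 2 and 38.6, 23.9 and 20.1 on day 1 and fell by 3.13 (SE 0.36, adjusted p = 2.52e-08), with -3.32 without day 1 replicate 3, but its reads may be split with the near-identical Prl2c3. Tppp3, a tubulin-binding protein, measured 592, 610.2 and 707 on day 2 and 180.4, 192 and 151 on day 1 at 5 µM, against 112, 105 and 124 on day 2 and 157, 207 and 172 on day 1 at 0 µM. It rose by 1.86 (SE 0.13, adjusted p = 1.06e-13), 1.76 without day 1 replicate 3 (adjusted p = 5.70e-12), and fell by 0.64 at 0 µM, a difference of 2.50 (adjusted p = 7.96e-12). Clec3b, which encodes the plasminogen-binding protein tetranectin, measured 7.92, 7.40 and 8.16 on day 2 and 0.0853, 0.491 and 0.0802 on day 1 and rose by 2.87 (SE 0.30, adjusted p = 2.68e-09), 2.79 without day 1 replicate 3 (adjusted p = 7.03e-08), with a change of 0.18 at 0 µM (adjusted p = 0.743). Colec10, a secreted collectin, measured 24.9, 18.8 and 20.5 on day 2 and 1.02, 0.409 and 0.562 on day 1 and rose by 3.76 (SE 0.28, adjusted p = 9.97e-13), 3.72 without day 1 replicate 3 (adjusted p = 3.53e-11). Cd248, a stromal surface protein, rose by 1.46, or 1.54 without that library, with a difference from 0 µM of 1.82 (adjusted p = 0.000855). Its mean was 7.17 on day 1 and 20.8 on day 2 at 5 µM, against 26.2 and 20.1 at 0 µM, so the doses stood apart on day 1 and close on day 2. Gm45234 measured 27.7, 4.64 and 17.4 on day 2 and 0.554, 0 and 0 on day 1 at 5 µM, against 0 in all 3 libraries of day 2 and 9.56, 38.2 and 0 on day 1 at 0 µM, and its fitted difference of 6.53 (adjusted p = 0.00317) depends on the pseudocount and is no bound.

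Few genes moved in opposite directions at the 2 doses. There were 36 that rose at 5 µM and fell at 0 µM and 16 that fell at 5 µM and rose at 0 µM, and 26 and 15 of them kept both calls, and a difference that passed, without day 1 replicate 3. Beside Myf5, Pfkp and Tppp3, the first group held Cd44, the hyaluronan receptor, and Aqp1, a water channel, both picked after their values were seen. Cd44 averaged 1467 ± 48.3 scaled CPM on day 2 and 879 ± 65.7 on day 1 at 5 µM (SD, n = 3 each) and rose by 0.74 [0.68], while it changed by -0.71 at 0 µM, and both passed in limma. Aqp1 averaged 268 ± 9.30 on day 2 and 179.7 ± 18.9 on day 1 (SD, n = 3 each) and rose by 0.58 [0.51] at 5 µM, with a change of -1.24 at 0 µM. The second group held Nusap1, Troap, Aldh1l2 and Fbln5, and the replication histone chaperone gene Asf1b and the histone gene H2afz, also picked after their values were seen, which fell by 1.14 [-1.01] and 0.69 [-0.64] at 5 µM and rose by 1.17 and 0.31 at 0 µM.

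Some calls rested on day 1 replicate 3. The 8 largest falls that were called with it and not without it were Krt8, Hba-a2, Tmod2, Syt7, Kctd12, Smoc2, Abcg1 and Rab3b. Krt8, a keratin of simple epithelia, measured 0, 0 and 0.441 on day 2 and 1.96, 0.286 and 52.2 on day 1. Hba-a2, an alpha globin gene with a near-identical copy, measured 0.0875, 1.28 and 1.32 on day 2 and 5.67, 3.35 and 10.6 on day 1. In all 8 genes that library, which carries the lung and blood markers, was the highest of the 6, and Syt7 was below the filter without it. The part of those markers in these falls was not tested. Of the 176 other named genes, 168 passed with all libraries and 155 of these also passed without it, all 168 in the same direction. The median shift in the change of those 155 genes was 0.08, and 143 moved by less than 0.25. The 13 that did not pass were Cdkn2c, Neil3, Rad51ap1, Hspb3, Col11a1, Id2, Nhp2, Nop2, Atp5b, Fosl1, Cxcl5, Ptgs2 and Bcl2l11.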

How the data were processed

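RNA-seq values of 48709 genes in 30 C2C12 libraries, in 10 groups of 3 biological replicates, were used, and the 6 libraries described here are the 5 µM day 2 and 5 µM day 1 groups. The authors deposited 1 table whose signal, named CPM per the file headers, does not sum to a constant per library. Dividing each library by its own smallest step gave whole reads for 100% of values (within 0.02 of a read), 1 read being worth 0.0400 to 0.0441 in the 6 libraries. The sources used here name no aligner, genome build, annotation, strand setting or further scaling. Intervals from reads would cover counting error only.

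The 12946 genes that reached 1 scaled CPM in 3 or more libraries were fitted on log2(value + 1) with limma 3.58.1 and a mean-variance trend in R 4.3.3, 1 mean per group over all 30 libraries. Contrasts were 5 µM day 2 minus day 1, the same at 0 µM, and the difference of these, with Benjamini-Hochberg adjustment over all genes and a threshold of 0.05. edgeR 4.0.16 (quasi-likelihood test, 2502 genes called) and DESeq2 1.42.0 on the recovered reads, other scalings, filters and pseudocounts, a replicate block and leaving out libraries were alternatives. The procedure was also run on simulated counts, and the outcome is not given here. Those counts were drawn from group means, so no single library was set apart by extra transcripts as day 1 replicate 3 is. Replicate numbers were not taken to pair the libraries of the 2 days. Nothing in the sources says more of how cultures were kept apart, and p-values measure only the spread between these samples.

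Genes are named by a rule: key genes of each list, the 10 largest rises and 10 largest falls called with and without day 1 replicate 3 at a mean of at least 5 with replicates that do not overlap, the 6 most positive and 6 most negative differences by the same rule, up to 5 called members with the largest change of each list, and the 8 largest falls not called without that library. Members of lists that did not pass and genes marked as picked later were added. The comparison, lists and tests were chosen with earlier results of these data known. Promoter windows came from the RefSeq table for GRCm38.p6, matched by symbol.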

Additional observations from a re-analysis of the deposited data

Results flagged for a closer look

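Of the 176 genes named by list or size, 65 had a change from day 1 to day 2 that differed between 5 µM and 0 µM in limma, and 53 of these also differed without day 1 replicate 3. What set them apart was this test of the difference itself, given here as the change at 5 µM minus the change at 0 µM on the log2 scale. No explanation was tested.

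Among mitosis genes the difference was -4.25 for Cenpa, -3.53 for Cdc25c, -3.39 for Kif23, -3.36 for Ccnb2, -3.32 for Hmmr, -3.22 for Cenpf, -3.19 for Ccnb1, -3.13 for Cdc20, -3.11 for Kif20a and -2.83 for Mki67. The spindle genes Troap, Knstrn and Pttg1 differed by -3.26, -2.92 and -2.84. Among replication and repair genes, Ccna2 differed by -2.73, Tk1 by -2.33, Mcm10 by -1.93, Fancd2 by -1.89, Uhrf1 by -1.48 and Prim1 by -1.11. Day 1 replicate 3 was the highest of its group for 26 of 31 mitosis genes and 28 of 31 replication genes, and its part in these differences was not tested beyond leaving it out.

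Among amino acid and folate genes the difference was -3.05 for Aldh1l2, -1.71 for Pck2, -1.46 for Asns and -1.20 for Slc7a5. The p53 targets Aen and Plk2 differed by -0.79 and 0.62. Ccnd1 differed by 0.81, the chaperone genes Calr and Hspa5 by 0.71 and 0.93, Egr1 by 0.96, Hsd17b7 by 1.11, Ctgf by 1.51, Heyl by 1.71 and the chemokine gene Cxcl5 by 1.80.

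Among muscle genes the difference was negative for Cav3 (-2.86), Fst (-2.54) and Myl4 (-1.14). It was positive for Atp2a1 (0.57), Rbm24 (0.62), Mylpf (0.65), Tmem8c (0.80), Myf5 (1.04), Acta1 (1.06), Ckm (1.06), Actc1 (1.08) and Pgam2 (1.38). Except for Myf5, these genes with a positive difference had lower means at 5 µM than at 0 µM on both days. Acta1, for example, averaged 112 on day 1 and 1366 on day 2 at 5 µM, against 678 and 3933 at 0 µM. These levels were not tested across doses. Of the other genes, Fbln5 differed by -2.06, Pfkp by 1.06, Cd248 by 1.82, Tceal7 by 1.92, Colec10 by 2.04, Tppp3 by 2.50 and Clec3b by 2.69. The 6.53 of Gm45234 is a fitted value against a group in which all 3 libraries were at 0. In edgeR the differences of Cav3 and Cxcl5 did not pass (adjusted p = 0.0755 and 0.230) and the others did.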

How the results depend on the processing

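The number of genes called between the days at 5 µM, 2699 with all libraries, lay between 2089 (edgeR without day 1 replicate 3) and 2747 (DESeq2) under every alternative run, and between 2105 and 2485 when 1 library was left out of these groups. The difference between the doses, 751 genes, lay between 571 and 894, with 571 to 790 when 1 library was left out. The 0 µM interval, 2878 genes, lay between 2291 and 3753. Without both libraries that carry extra transcripts, day 1 replicate 3 at 5 µM and day 1 replicate 1 at 2 µM, 2404 genes were called at 5 µM. A replicate block left 2680 genes called at 5 µM, 2869 at 0 µM and 736 for the difference, and 2207 at 5 µM without day 1 replicate 3. Libraries of the 2 days with the same number shared only that number, with correlations of their deviations of 0.028, 0.022 and -0.048, and not every library correlated best with its own number. With median-of-ratios scaling 1490 genes rose and 1162 fell. Over the named genes, the change held its direction and its side of the threshold in 3443 recomputed values, lost the threshold in 196, gained it in 4 and changed sign in 15; for the difference these numbers were 976, 9, 12 and 16. The cause was not tested.

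The sign changes were all of values near 0 that did not pass. The change of Mdm2 was -0.087 with quantile normalization, -0.065 with the replicate block and likewise -0.065 in edgeR (both without day 1 replicate 3), -0.046 without both libraries with extra transcripts, and -0.046 to 0.12 leaving out 1 library. Id1 was 0.019 with quantile normalization and -0.21 to 0.045 leaving out 1 library, Hmox1 0.0048 with the replicate block without day 1 replicate 3 and -0.099 to 0.10, and Fbxo32 -0.12 to 0.054. The difference for Tnnt3 was 0.024 with a pseudocount of 0.5, 0.078 in edgeR, 0.048 in edgeR without day 1 replicate 3, 0.073 in DESeq2 and -0.11 to 0.14 leaving out 1 library. The difference for Col1a1 was -0.0018 with quantile normalization, -0.0034 in edgeR, -0.0087 in DESeq2 and -0.13 to 0.13 leaving out 1 library.

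The difference between doses for sarcomere genes near 0 on day 1 differed between the tools, which vary the scale, the scaling factors and the model together: Actn2 differed by -2.15 in limma and -1.71 in edgeR (adjusted p = 0.0696), and Myh7 by -2.38 and 0.21 (adjusted p = 0.951). In limma they stayed at -2.07 and -2.16 with a pseudocount of 0.5. With 3 libraries a group, an exact permutation test of a single value cannot pass.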
